A study of Mus musculus with 4 samples.

Results

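The 2′,5′-oligoadenylate synthetases, with the double-stranded RNA-activated protein kinase PKR (*Eif2ak2*), were examined in J774.1 cells, a mouse monocyte-macrophage line, after proteasome inhibition. The genes were chosen by name and comprised *Oas1a*, *Oas1b*, *Oas1c*, *Oas1g*, *Oas2*, *Oas3*, *Oasl1*, *Oasl2* and *Eif2ak2*, which made 9 genes. A probe was assigned to one of them when the transcript accession of the probe carried its symbol in RefSeq (GRCm38.p6). This gave 10 probes for 8 of the genes, of 20144 genes with a named probe in all. *Oas1b* had no probe that could be named in this way and was not analysed here. The array does hold probes whose accession is missing from the RefSeq version used, and whether they read *Oas1b* was not settled.

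Cells received MG132, a peptide aldehyde inhibitor of the proteasome, epoxomicin, an inhibitor of the 20S proteasome, or ONX0914, an inhibitor of the β5 and β5i subunits, each at 1 μM, or the solvent DMSO. RNA was taken after 4 hours and hybridised to 1 single-color array per condition, which made 4 arrays on 1 slide. There were no replicates. No test between conditions was therefore possible, and all 3 inhibitors were compared with the same DMSO array. The treatment label of the ONX0914 array reads ONX-0912, whereas its protocol and the paper name ONX0914. J774.1 is 1 established line, for which the labels name no transgene, and the inhibitors were compared at 1 dose and 1 time only.

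Signals are given as deposited, that is, as spot brightness after background subtraction within the array. Differences are on the log2 scale after the 75th percentile of each array (1647 under DMSO, 1448 under MG132, 1669 under epoxomicin and 1603 under ONX0914) was set equal, so they can depart slightly from the ratio of the raw signals. Genes that differed at least 2-fold from DMSO were counted as higher or lower. The scanner software puts the error of 1 such difference at a median of 0.204 on the log2 scale for these genes, which covers the reading of the spots but not the spread between cultures. Between 60.3% and 63.1% of spots were well above background and no spot was saturated. None of 10 reference genes passed a 2-fold difference with any inhibitor. Of 8 macrophage markers 7 had a named probe, and all 7 were well above background on every array. One of them, the lysozyme gene *Lyz2*, was 2-fold lower with epoxomicin (-1.01, against -0.60 with MG132 and 0.14 with ONX0914), and *Spi1* gave -0.52, -0.97 and 0.08 with MG132, epoxomicin and ONX0914. All 4 B cell markers were not above background, with summed signals between 37 and 48. Among 4 T cell markers, *Cd3e* and *Cd4* were detected on every array, and the list summed to between 4480 and 5321. *Cd4* read 4293 under DMSO on its brightest probe and 28.5 on another. Fibroblast markers summed to between 101 and 139, with *Col1a1*, *Col1a2*, *Col3a1* and *Pdgfra* on the list. Of these, *Col1a2* was well above background on every array and *Pdgfra* under DMSO and epoxomicin. The 4 epithelial markers summed to 21 under DMSO, 64 under MG132, 169 under epoxomicin and 27 under ONX0914. *Krt8* was above background with MG132 and epoxomicin and *Krt18* with epoxomicin only, and neither with ONX0914 or DMSO. The part of these markers in the results was not tested.

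Oligoadenylate synthetases are induced by interferon and act as sensors of double-stranded RNA in the cytosol. Once bound to it, they make 2′,5′-linked oligoadenylates from ATP, which serve as a second messenger of the antiviral response. PKR senses the same RNA and phosphorylates the translation factor eIF2α, by which protein synthesis is lowered. The promoters of such genes often carry the interferon-stimulated response element, to which the ISGF3 complex, with STAT2 and IRF9 among its parts, binds. Mice have several copies of *Oas1* in a row.

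The promoter stretches that hold the core of this element are shown because some members share the same bases there and others hold no match. RefSeq windows (GRCm38.p6) of 250 bases before to 50 bases after the gene start were found for 7 of the 9 genes. The core was taken as GAAA, any 2 bases and GAAA again. Searched on both strands, it occurred in 5 of these 7 windows, and in 3.44% of 32851 windows in the table. In the lines that follow the matches are in capitals and all stretches read 5′ to 3′ along the gene, which lies on the minus strand in each case. For *Oas1a* the stretch is chr5:120907526-120907585, for *Oas1g* chr5:120887614-120887673, for *Oas1c* chr5:120812591-120812650, for *Oas3* chr5:120777700-120777759, and for *Eif2ak2* chr17:78882540-78882569.
Oas1a: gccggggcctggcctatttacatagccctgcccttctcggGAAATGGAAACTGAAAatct
Oas1g: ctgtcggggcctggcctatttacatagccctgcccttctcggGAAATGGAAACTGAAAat
Oas1c: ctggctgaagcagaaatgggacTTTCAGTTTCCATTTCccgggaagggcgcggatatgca
Oas3: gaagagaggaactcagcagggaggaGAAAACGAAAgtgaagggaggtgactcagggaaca
Eif2ak2: ggcggagtccgccggGAAAACGAAAcagaa

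*Oas1a*, *Oas1g* and *Oas1c* held 2 overlapping matches that together spell the same 16 bases, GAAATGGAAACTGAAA. The run began 20 bases before the start of *Oas1a* and 18 before that of *Oas1g*. In *Oas1c* it lay on the opposite strand and farther away, with its first printed base 114 before the start. Beside these genes only *Apol9a* and *Apol9b* held the 16 bases in the table. *Oas3* and *Eif2ak2* shared the 10 bases GAAAACGAAA, which began 75 bases before the start of *Oas3* and at base 19 of the *Eif2ak2* transcript. These 10 bases were found in 31 windows of 29 genes in the table. The windows of *Oasl1* and *Oasl2* held no match, nor did those of *Oas1f* and *Oas1h*, copies of *Oas1* outside the 9 genes, and those of *Oas1b* and *Oas2* were not in the table. Over the 250 bases before the start, *Oas1a* and *Oas1g* were 82.8% identical, against 49.0% for *Oas1a* and *Oas1c* and 46.0% for *Oasl1* and *Oasl2*. *Oas1f* and *Oas1h* were 73.5% identical. All other pairs of synthetase genes with a window lay between 45.7% and 52.1%, so 49.0% and 46.0% were no more than the usual level. The STAT site TTCNNNGAA was found in the windows of *Oas1a* and *Eif2ak2*, with 8.30% of all windows holding it, and the NF-kB site (GGG, any 2 bases and TTTCC) in none of the 7, against 1.63% of all windows.

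All 8 genes with a named probe were well above background on all 4 arrays. Of these, 6 were at least 2-fold higher under MG132, 7 under epoxomicin and 4 under ONX0914, and none was 2-fold lower with any of them. The ONX0914 count ranged from 3 to 5 at this threshold over the ways of processing that were tried, with *Oas1a*, *Oas2* or *Oas1g* changing sides. Of all genes compared, 7.24% were at least 2-fold higher under MG132, 8.49% under epoxomicin and 3.27% under ONX0914, and 3.69%, 4.41% and 1.40% were lower, in the same order. The median log2 difference of the 8 genes was 1.67 under MG132, 1.87 under epoxomicin and 1.01 under ONX0914. Over all genes compared the median was -0.02, -0.04 and -0.01. *Oasl1* and *Oasl2* showed the largest differences of the 8 genes with every inhibitor, and *Oas1c* the smallest. Whether more RNA per cell or more cells with the RNA underlay a difference cannot be told apart on these arrays.

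**Figure D1:**
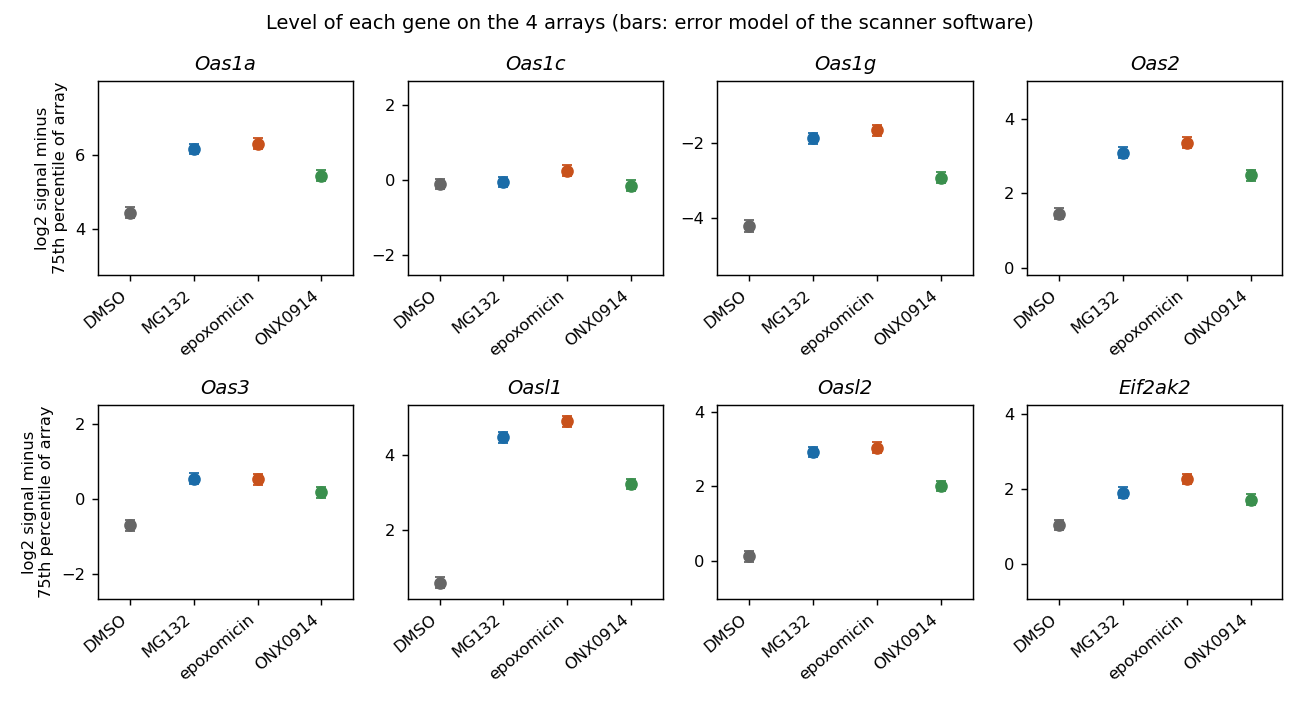
Level of each of the 8 genes (y axis, log2 signal minus the 75th percentile of the array) on the DMSO, MG132, epoxomicin and ONX0914 arrays (x axis); each point is 1 array, its bar is the error model of the scanner software, and every panel spans the same height. In all panels but that of *Oas1c* the DMSO point is the lowest.

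*Oasl1* encodes a synthetase-like protein with ubiquitin-like domains that makes no oligoadenylates and is known as a brake on the translation of *Irf7*. Its signal was 2486 under DMSO, 32339 under MG132, 50224 under epoxomicin and 15034 under ONX0914. All 3 inhibitor arrays lay far above DMSO, with epoxomicin the highest and ONX0914 the lowest of them. The log2 differences were 3.89, 4.32 and 2.63 in that order, or 14.8-, 19.9- and 6.21-fold. *Oasl2*, which also carries ubiquitin-like domains but has kept synthetase activity, rose with all 3 inhibitors as well. It measured 1798 under DMSO, 10973 under MG132, 13713 under epoxomicin and 6458 under ONX0914, which gave 2.79, 2.91 and 1.88 on the log2 scale. The step from MG132 to epoxomicin was 0.43 for *Oasl1*, beyond the software error, and 0.12 for *Oasl2*, within it.

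*Oas1a* and *Oas1g* are the *Oas1* copies known to have synthetase activity in mice. *Oas1a* gave a signal of 35964 under DMSO, 102908 under MG132, 130741 under epoxomicin and 69660 under ONX0914. The order of the arrays was that of *Oasl1*, but the distances were smaller. Its log2 differences were 1.70 under MG132, 1.84 under epoxomicin and 0.99 under ONX0914, so the last fell short of the 2-fold threshold by less than the software error. A second *Oas1a* probe read 7433, 19497, 24139 and 13993 on the same arrays and gave 1.58, 1.68 and 0.95. Both *Oas1a* probes were therefore past 2-fold with MG132 and epoxomicin and just under it with ONX0914.

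*Oas1g* was faint. Its probe read 88.8 under DMSO, 400 under MG132, 534 under epoxomicin and 213 under ONX0914, and was well above background on all arrays. The log2 differences were 2.36, 2.57 and 1.30, all past 2-fold. They rested on this one dim probe, and with another background correction (normexp) they were 0.72, 0.82 and -0.13. With it none passed 2-fold and the ONX0914 value changed sign. The normexp setting adds an offset of 50 to each corrected signal, which is large beside the 88.8 of this probe under DMSO. The other *Oas1g* probe, at 4.62, 13.1, 20.0 and 6.67, was not well above background on any array and gave no difference. Since the *Oas1* copies resemble each other and the probe sequences were not used here, whether one copy was read by the probe of another was not tested.

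*Oas1c* belongs to the copies for which no synthetase activity has been described. Its signal was 1536 under DMSO, 1400 under MG132, 1985 under epoxomicin and 1448 under ONX0914. The arrays lay close together, and with ONX0914 the level was just below that of DMSO. The log2 differences were 0.05, 0.35 and -0.05, of which only that with epoxomicin exceeded the software error.

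*Oas2* and *Oas3* encode the larger synthetases with repeated domains. The *Oas2* signal was 4540 under DMSO, 12372 under MG132, 17061 under epoxomicin and 8984 under ONX0914. It rose with all 3 inhibitors, by 1.63, 1.89 and 1.02 on the log2 scale, and the ONX0914 value passed 2-fold by less than the software error. *Oas1a* and *Oas2*, on either side of the threshold with ONX0914, thus differed from each other by less than that error. *Oas3* measured 1016 under DMSO, 2123 under MG132, 2419 under epoxomicin and 1821 under ONX0914. MG132 and epoxomicin gave nearly the same increase, 1.25 and 1.23, and ONX0914 gave 0.88, under 2-fold.

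*Eif2ak2*, which encodes PKR, lies on chromosome 17, apart from the synthetase genes. It gave 3398 under DMSO, 5422 under MG132, 8086 under epoxomicin and 5265 under ONX0914. The epoxomicin array stood highest, and the MG132 and ONX0914 arrays were close to each other. The log2 difference was 1.23 with epoxomicin, past 2-fold, and 0.86 with MG132 and 0.67 with ONX0914, both under it. With *Hprt* as the only scaling, the MG132 value was 1.06.

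**Figure D2:**
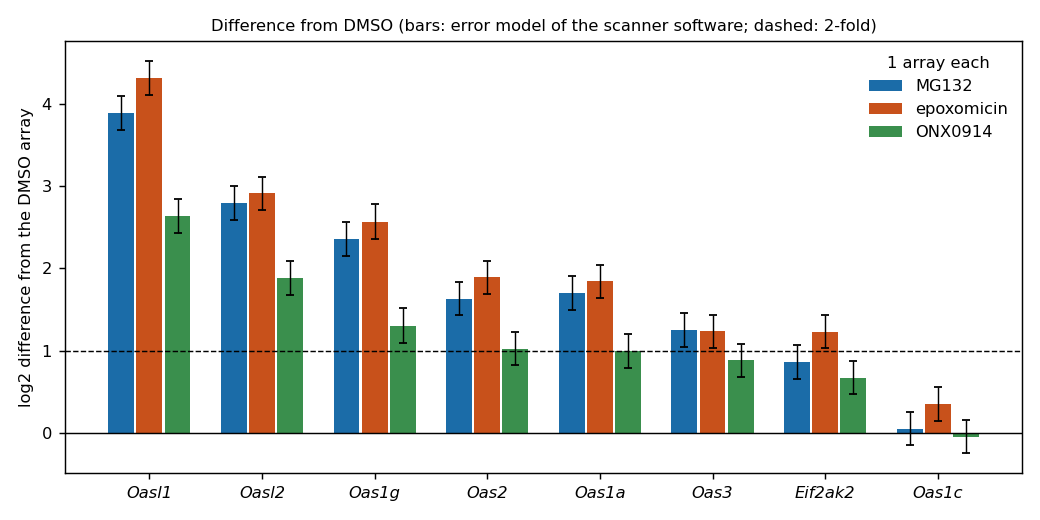
Log2 difference from the DMSO array (y axis) for the 8 genes (x axis, ordered by the epoxomicin value), with 1 bar per inhibitor array, starting at 0; black lines are the error model of the scanner software and the dashed line is 2-fold. *Oasl1* reaches 4.32 with epoxomicin, and the bars of *Oas1a* and *Oas2* with ONX0914 end at the dashed line.

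**Figure D3:**
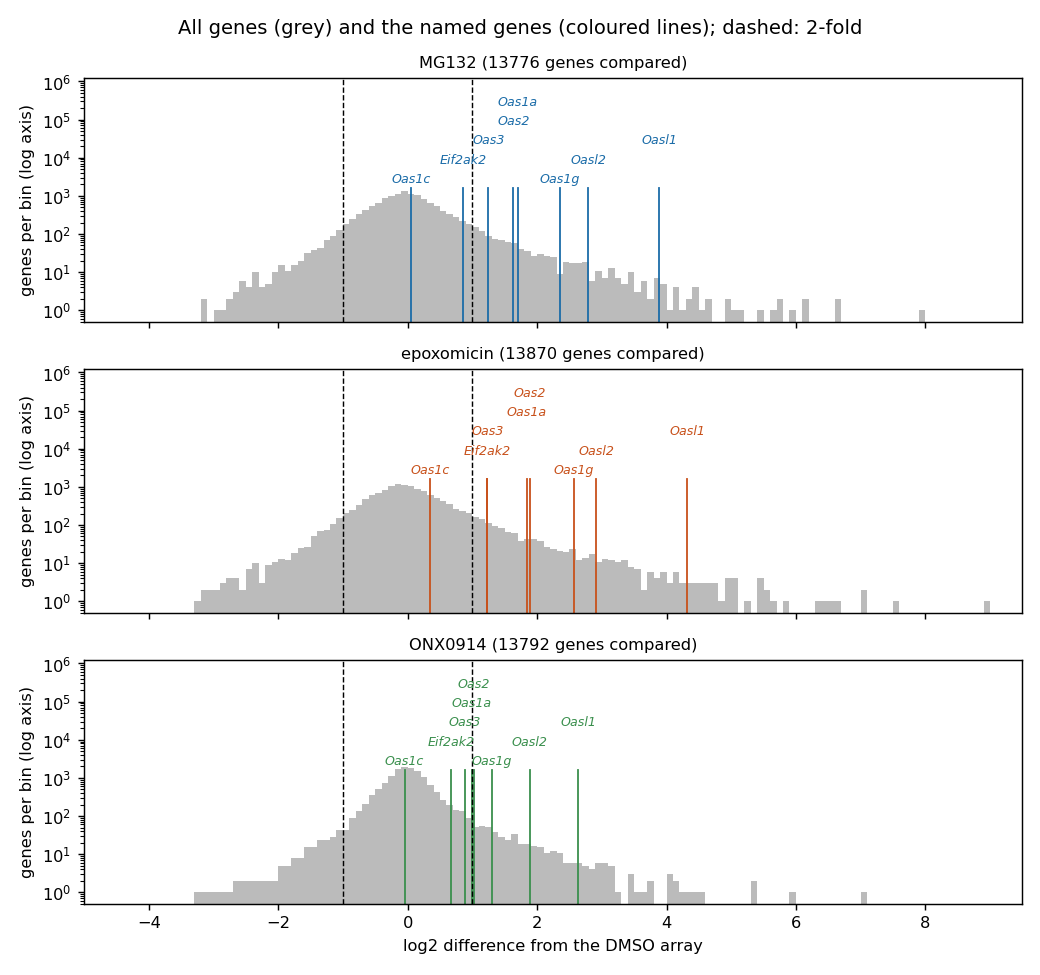
Log2 difference from the DMSO array (x axis) of all genes compared, as the number of genes per bin (y axis, log scale), for MG132, epoxomicin and ONX0914; coloured lines mark the 8 genes and dashed lines 2-fold in either direction. Of the 8 genes, *Oasl1* lies farthest to the right and *Oas1c* near the middle of the distribution, and the median of the 8 is 1.67, 1.87 and 1.01 in the 3 panels.

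The 3 inhibitors were then compared with each other on the same arrays. For 6 of the 8 genes (*Oas1a*, *Oas1g*, *Oas2*, *Oasl1*, *Oasl2* and *Eif2ak2*), the level was highest with epoxomicin, followed by MG132, ONX0914 and DMSO. Outside the members, *Stat2*, *Irf7*, *Isg15* and *Rsad2* had the same order, so it was not particular to these genes. In *Irf1*, *Ifit1* and *Socs1* ONX0914 lay above MG132. Epoxomicin lay above MG132 in 7 of 8 genes, against 51.6% of all genes, with a median of 0.24 on the log2 scale and a range from -0.02 to 0.43. None of the 8 reached 2-fold between these inhibitors, against 1.52% of all genes in either direction, and in 5 the step exceeded the software error. ONX0914 lay below MG132 in 8 of 8 genes, against 46.9% of all genes, by a median log2 difference of -0.66 (range -1.25 to -0.10), and in 6 of them beyond the software error. Without scaling, *Oas1c* turned, with -0.13 for MG132 and -0.09 for ONX0914. *Oasl1* and *Oas1g* passed 2-fold here, 2 of 8 genes against 4.11% of all genes. Against epoxomicin the ONX0914 values were lower in 8 of 8 genes, against 45.5% of all genes, with a median of -0.86 and a range from -1.68 to -0.35. *Oasl1*, *Oasl2* and *Oas1g* passed 2-fold, 3 of 8 genes against 5.97% of all genes. For *Oas1g*, ONX0914 lay within 2-fold of both other inhibitors with normexp. The compounds were given at the same concentration, and how far each blocked the proteasome was not measured on these arrays.

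For the 6 genes past 2-fold with both MG132 and epoxomicin, the ONX0914 difference on the log2 scale was a median of 0.651 times the MG132 difference, with a range from 0.553 for *Oas1g* to 0.706 for *Oas3*. These ratios share the DMSO array, and the MG132 difference that divides them was also used to choose the genes. They are given as a description only. *Eif2ak2*, left out because its MG132 value was under 2-fold, gave a ratio of 0.781. Outside the members, the ratio was 0.646 for *Stat2* and 0.659 for *Irf7*, so values like those of the 6 genes were not particular to them. Other interferon-related genes lay outside that range, with 0.466 for *Bst2*, 0.871 for *Rsad2*, 1.01 for *Ifit1* and 1.45 for *Socs1*.

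Most of the synthetase genes lie side by side on chromosome 5. In the RefSeq order, *Oas2* is followed by *Oas3*, *Oas1e*, *Oas1c*, *Oas1b*, *Oas1f*, *Oas1h*, *Oas1g*, *Oas1a* and, after another gene, *Oas1d*, while *Oasl2* and *Oasl1* lie elsewhere on the chromosome with another gene between them. *Oas1b* is listed there as a transcribed pseudogene. Of the *Oas1* copies outside the 9 genes, *Oas1f* had 15406 under DMSO, 39587 under MG132, 51196 under epoxomicin and 26991 under ONX0914. Its log2 differences of 1.55, 1.71 and 0.85 lay near those of *Oas1a*. *Oas1e* differed by 0.33, 0.30 and 0.07 and *Oas1d* by -0.34, -0.30 and 0.08, and *Oas1h* was not well above background on any array. Genes past 2-fold thus lay on both sides of *Oas1e* and *Oas1c*, which stayed within it.

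**Figure D4:**
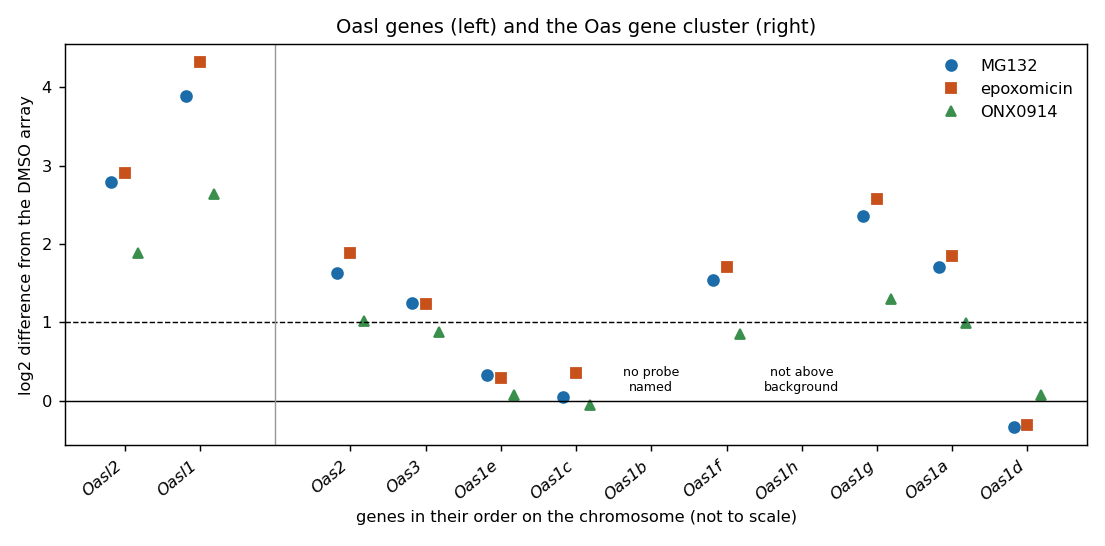
Log2 difference from the DMSO array (y axis) for the synthetase genes in their order on chromosome 5 (x axis, not to scale), with 1 symbol per inhibitor array and the 2-fold line dashed; the vertical line parts the *Oasl* locus from the *Oas* cluster. *Oas1e*, *Oas1c* and *Oas1d* lie near 0 between or beside genes past 2-fold with MG132 and epoxomicin.

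Of the pathway genes that are not synthetases, *Abce1*, *Pde12* and *Akap7* stayed within 2-fold on their brightest probe. *Abce1*, a factor of ribosome recycling, gave -0.36, -0.21 and -0.06, and *Pde12*, a phosphodiesterase that degrades oligoadenylates, gave 0.10, 0.21 and -0.14. *Akap7*, another enzyme that can degrade them, gave 0.08, -0.07 and -0.61 with its brightest probe, and the other probes of this gene were lower than DMSO with every inhibitor, one of them past 2-fold with MG132 (-1.05). Of 7 pathway genes outside the members, 6 were compared, of which 1 (*Oas1f*) was higher with MG132 and with epoxomicin and none with ONX0914, and none was lower. Their medians were 0.09, 0.07 and 0.005. For this list and those that follow, the shares of all genes at least 2-fold higher were 7.24%, 8.49% and 3.27% with MG132, epoxomicin and ONX0914. The lists were short and chosen with earlier results of these data known.

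Around PKR, 13 genes of its partners and of the eIF2α pathway were measured, and 4, 4 and 3 of them were higher with MG132, epoxomicin and ONX0914, with none lower. The medians of this list were -0.06, 0.18 and 0.13. *Ppp1r15a*, which guides the dephosphorylation of eIF2α, rose by 3.19, 3.05 and 2.40. The transcription factors *Ddit3* (3.16, 2.76 and 3.16) and *Atf4* (1.12, 1.09 and 1.28) rose with all 3 inhibitors, and *Adar*, which edits double-stranded RNA, rose with MG132 (1.36) and epoxomicin (1.46) and gave 0.78 with ONX0914, where its dimmer probe gave 1.06. The eIF2α kinases *Eif2ak1*, *Eif2ak3* and *Eif2ak4* all stayed within 2-fold, with values from -0.47 to 0.13, unlike *Eif2ak2* with epoxomicin. *Tarbp2*, a protein partner of PKR, gave -0.78, -0.87 and -0.32.

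Of 6 genes for other sensors of foreign nucleic acid and their adaptor, 3 were higher under MG132, 4 under epoxomicin and 1 under ONX0914, and the medians were 1.27, 1.75 and 0.73. *Dhx58* rose by 2.12, 2.26 and 1.26. *Ddx58* (RIG-I) gave 1.82, 2.07 and 0.94 and *Ifih1* (MDA5) 1.66, 2.01 and 0.88 on their brightest probes, under 2-fold with ONX0914, whereas a dimmer *Ddx58* probe gave 1.95, 2.30 and 1.18, past 2-fold with each inhibitor. *Mavs*, the adaptor of RIG-I and MDA5, differed by 0.02, -0.02 and 0.07.

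Among 11 genes of ISGF3, its receptors and its feedback, 6 were higher under MG132, 6 under epoxomicin and 5 under ONX0914, with medians of 1.25, 1.55 and 0.83. *Stat2* rose by 2.31, 2.45 and 1.49, and *Irf9* by 1.25 and 1.55 with MG132 and epoxomicin and gave 0.83 with ONX0914. *Irf7*, the transcript whose translation *Oasl1* restrains, rose by 2.98, 3.13 and 1.97. *Ifnar1*, a chain of the receptor for type I interferon, fell by 1.23 with MG132 and 1.34 with epoxomicin, and gave -0.66 with ONX0914. The order with epoxomicin highest was not shared by *Socs1*, a feedback inhibitor, whose values were 3.06, 3.34 and 4.44, with ONX0914 the highest.

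For each of the 8 genes, the 3 genes with the most similar log2 differences were sought among 12728 genes well above background on all arrays, by the Euclidean distance over the 3 inhibitor arrays. The nearest to *Oasl1* were *Tgtp1*, *Il1rn* and *Cish*, at distances from 0.287 to 0.357. *Dusp1*, *Cdkn1a* and *Xaf1* were nearest to *Oasl2* (0.126 to 0.173), and *Stk38l*, *Pvt1* and *Ifi202b* to *Oas1g* (0.104 to 0.131). *Gch1* was nearest to *Oas1a* (0.035), *Hspa2* to *Oas2* (0.048), *Usp3* to *Oas3* (0.030), *Vsig2* to *Eif2ak2* (0.053) and *Foxred1* to *Oas1c* (0.026). Apart from those of *Oasl1*, the distances given are below the software error of a single difference, so the order among near neighbours is not resolved.

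**Figure D5:**
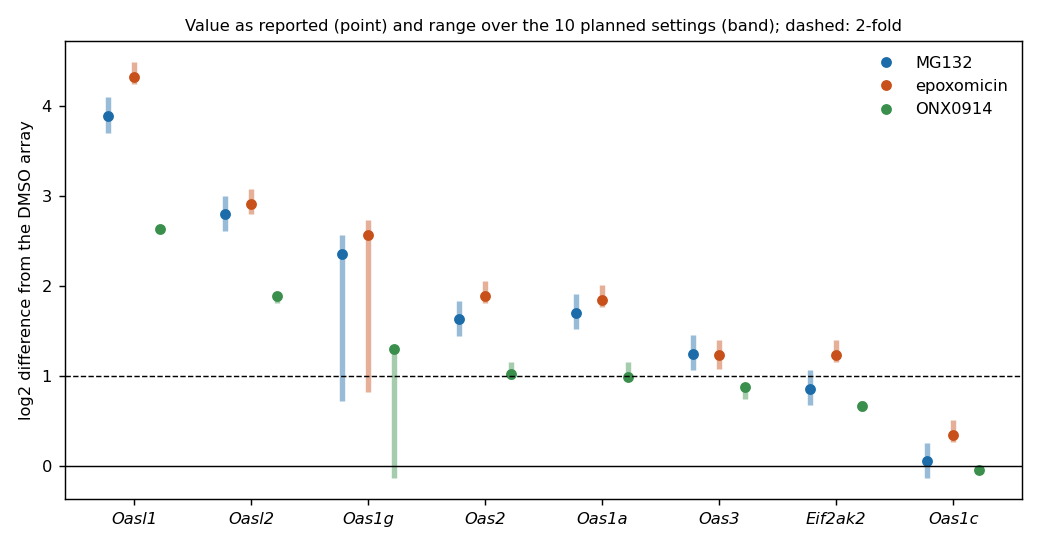
Log2 difference from the DMSO array (y axis) of the 8 genes (x axis) as reported (points) and its range over 10 other ways of processing the arrays (bands), with 2-fold dashed. The bands are short except for *Oas1g*, which reaches down to 0.72, 0.82 and -0.13.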

How the data were processed

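The authors deposited the Feature Extraction 10.7.1.1 output of each array, with the background-subtracted intensity of every spot, and a table of log2 values normalized with GeneSpring. The Methods name a human array, whereas the file headers describe a mouse design, so probes were named through their accessions in RefSeq. Of 39429 probes, 26581 (67.4%) had 1 symbol, and none had several. Control spots were left out, log2 intensity was taken, and the 75th percentile of the array was subtracted. The probe with the highest mean stood for a gene. A gene was compared when well above background on at least 1 of both arrays, and a bound replaced a signal that was not. The members, gene lists, named genes and alternatives were chosen with earlier results of these data known. Named genes were all members, the fixed pathway lists and the 3 most similar genes per member, with *Apol9a* and *Apol9b* added after the promoter search. Some listed genes are not reported here and were left out of the lists. No test or P value was computed. The calculations were tested on simulated data. The number of arrays limits the precision. Python 3.11.15, pandas 2.3.3, R 4.3.3 and limma 3.58.1 were used.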

Additional observations from a re-analysis of the deposited data

How the results depend on the processing

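Each condition had 1 array, so culture-to-culture spread is unknown, and changes of less than 0.087 on the log2 scale, a limit set by the spread of repeated spots, were taken as no move. Of 264 differences of the 8 genes under an alternative, 211 changed by less than this and 52 by more, and 1 that was past 2-fold as reported changed sign: *Oas1g* with ONX0914 was -0.13 with normexp. With normexp fitted without spots marked as outliers, an alternative chosen after seeing the data, *Oas1g* was 1.66, 1.76 and 0.82. The median of the 8 genes with MG132 was 1.44 with normexp, 1.57 with a shift to the median, 1.48 without scaling and 1.87 with *Hprt* as the only scaling. The median with epoxomicin was 1.67 with normexp and 2.03 with *Hprt*, and with ONX0914 it was 0.89 with normexp without outlier spots. At a 4-fold threshold 3 genes were higher under MG132, 3 under epoxomicin and 1 under ONX0914, and at 1.5-fold 7 with each inhibitor. The shares of all genes at 4-fold and 1.5-fold were not computed, so these counts have no background beside them. The median of all genes itself shifted with these settings, to -0.27, -0.30 and -0.15 with normexp, to -0.12 and -0.12 with MG132 and epoxomicin after the shift to the median, to -0.20 with MG132 without scaling, and to 0.19 and 0.13 with *Hprt*. Among differences under 2-fold, 3 changed sign, all of *Oas1c* with MG132: -0.13 without scaling, -0.05 with the shift to the median and -0.003 with normexp without outlier spots. At 2-fold, the MG132 count was 5 with normexp and 7 with *Hprt*, and the epoxomicin count 6 with normexp. The ONX0914 count was 5 with *Hprt* and 3 with quantile normalization (*Oas2* at 0.96), the percentile over detected probes (0.98), no scaling (0.98), the mean over probes (*Oas1g* at 0.94) and normexp without outlier spots (*Oas1g*). The causes were not tested. Quantile normalization, the percentile over detected probes, the authors' value table, the mean over probes, the most detected probe and the signal in place of bounds moved none of the medians by this limit. No paired analysis was possible because each condition had 1 array.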

Other observations

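Other interferon-stimulated antiviral genes outside the synthetase family rose as well. Of 13 such genes with a named probe, 12 were at least 2-fold higher under MG132, 13 under epoxomicin and 10 under ONX0914. Of all genes, 7.24%, 8.49% and 3.27% were higher in the same order, and the list was chosen with earlier results known. The medians of the 13 genes were 2.66, 2.84 and 1.88 on the log2 scale. *Rsad2*, which encodes viperin, measured 660 under DMSO, 39790 under MG132, 67508 under epoxomicin and 25520 under ONX0914, and rose by 6.10, 6.66 and 5.31. *Cmpk2* rose by 4.36, 4.93 and 4.00. *Isg15*, a ubiquitin-like modifier, rose by 3.31, 3.92 and 2.39, and *Bst2*, which tethers virus particles to the cell surface, by 1.09 and 1.13 with MG132 and epoxomicin, with 0.51 for ONX0914.

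Of 20 interferon genes listed, 16 had a named probe, of which 5 were above background on no array. With each inhibitor 10 could be compared, and none of these 10 was 2-fold higher on its brightest probe. Of all genes 7.24%, 8.49% and 3.27% were higher with MG132, epoxomicin and ONX0914, so 10 genes are too few to set against these shares. The probes were faint, with signals up to 229 under DMSO. A second *Ifna2* probe was well above background with epoxomicin only (46.3, against 8.16 with DMSO), at least 3.11-fold higher. *Ifnb1* gave 71.3 with DMSO and 84.1 with epoxomicin, and was not well above background with MG132 (15.1) or ONX0914 (8.08), so that it fell by at least 1.82 and 1.85 on the log2 scale there. This rests on 1 faint probe per array.

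*Apol9a* and *Apol9b*, named after the promoter search because they hold the same 16 bases as *Oas1a*, *Oas1c* and *Oas1g*, rose with all 3 inhibitors. *Apol9a* gave 2.82, 3.10 and 1.77 and *Apol9b* 2.88, 3.17 and 1.75 with MG132, epoxomicin and ONX0914. In the same order, *Oas1a* gave 1.70, 1.84 and 0.99, the faint *Oas1g* 2.36, 2.57 and 1.30, and *Oas1c* 0.05, 0.35 and -0.05. Whether the 16 bases had a part in any of these differences was not tested. Whether the probes of *Apol9a* and *Apol9b*, which are close relatives, read each other's transcripts was not tested either.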
